A study of Nothobranchius furzeri with 16 samples.

Results

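The enzymes that make serine and pass its one-carbon units into the mitochondrial folate pool were examined in brains of adult Nothobranchius furzeri, the turquoise killifish, an annual fish with a short life. Members were all rows of the deposited expression table whose symbol was PHGDH, PSAT1, PSPH, SHMT1, SHMT2, MTHFD1, MTHFD2, MTHFD1L, ALDH1L2 or GGH, without regard to case or copy suffix. This gave 10 rows of 26739. Of the 10 symbols, 9 had a row, ALDH1L2 had 2 and MTHFD1 had none. The RNA came from single whole brains. The 8 BORT fish were injected into the abdominal cavity with bortezomib, a peptide boronate that blocks the proteasome, at 500 µM. The 8 DMSO fish received the vehicle, 1% DMSO in salt solution, in the same way. Fish of both groups came from 1 hatch, were 12 to 14 weeks past hatching, included both sexes, and had 5 injections of 10 µl per g of body weight, on days 0, 6, 12, 18 and 24 of a 4 week course. The sex of each fish is not given in the sources used here, and strain is not stated.

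Cells build serine from a glycolytic intermediate in a short chain of reactions: PHGDH oxidises it, PSAT1 transfers an amino group and PSPH removes the phosphate. Serine hydroxymethyltransferases, SHMT1 in the cytosol and SHMT2 in mitochondria, then split serine into glycine and a one-carbon unit carried by folate. In mitochondria MTHFD2 oxidises that unit, MTHFD1L releases it as formate and ALDH1L2 oxidises it to carbon dioxide. GGH, a lysosomal hydrolase, trims the glutamate tail that keeps folate inside cells. In the brain this chain also supplies serine and glycine, and glycine acts at glutamate receptors. These roles, and those given below, are the ones known from mammals. In mammalian cells several of these genes are targets of ATF4, a transcription factor of the amino acid response.

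Values are TPM, transcript abundances corrected for transcript length and scaled to the same total in each fish, so levels of different genes can be set side by side. The depth per fish is unknown. A row was tested when at least 8 fish reached 1 TPM, which 18529 rows did. Of these 669 were higher and 232 lower in BORT fish by limma on log2(TPM + 1), with a Benjamini-Hochberg adjusted p under 0.05. PSMA4, a subunit of the proteasome core, averaged 209 ± 14.3 TPM in BORT brains and 110 ± 2.45 TPM in DMSO brains (SD, n = 8 each; log2 fold change 0.91 ± 0.05 (SE), adjusted p = 1.05e-08). Markers of neurons, myelin and radial glia, summed over each list, were present in all brains. Pituitary hormone transcripts summed to 2132 to 6068 TPM in 4 fish, BORT replicates 6 and 7 and DMSO replicates 5 and 6, and to at most 21.1 TPM in the other 12. In whole brain RNA, fewer cells of a type and less RNA per cell cannot be told apart.

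One member, GGH, rose in BORT brains, and no enzyme that makes or splits serine passed the test. Of the 9 member rows tested, 1 was higher, 0 were lower and 8 did not pass. Across all tested rows 4.86% were called, 3.61% higher and 1.25% lower, so a single call among 9 rows is near the background. The median log2 fold change of the 9 rows was 0.08, against 0.03 over all tested rows, and 7 of the 9 were positive. SHMT1 reached 1 TPM in 7 fish, short of the 8 required, and was not tested. The TPM of all 10 rows together summed to 372 to 414 per fish in BORT brains and 309 to 387 in DMSO brains.

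**Figure D1:**
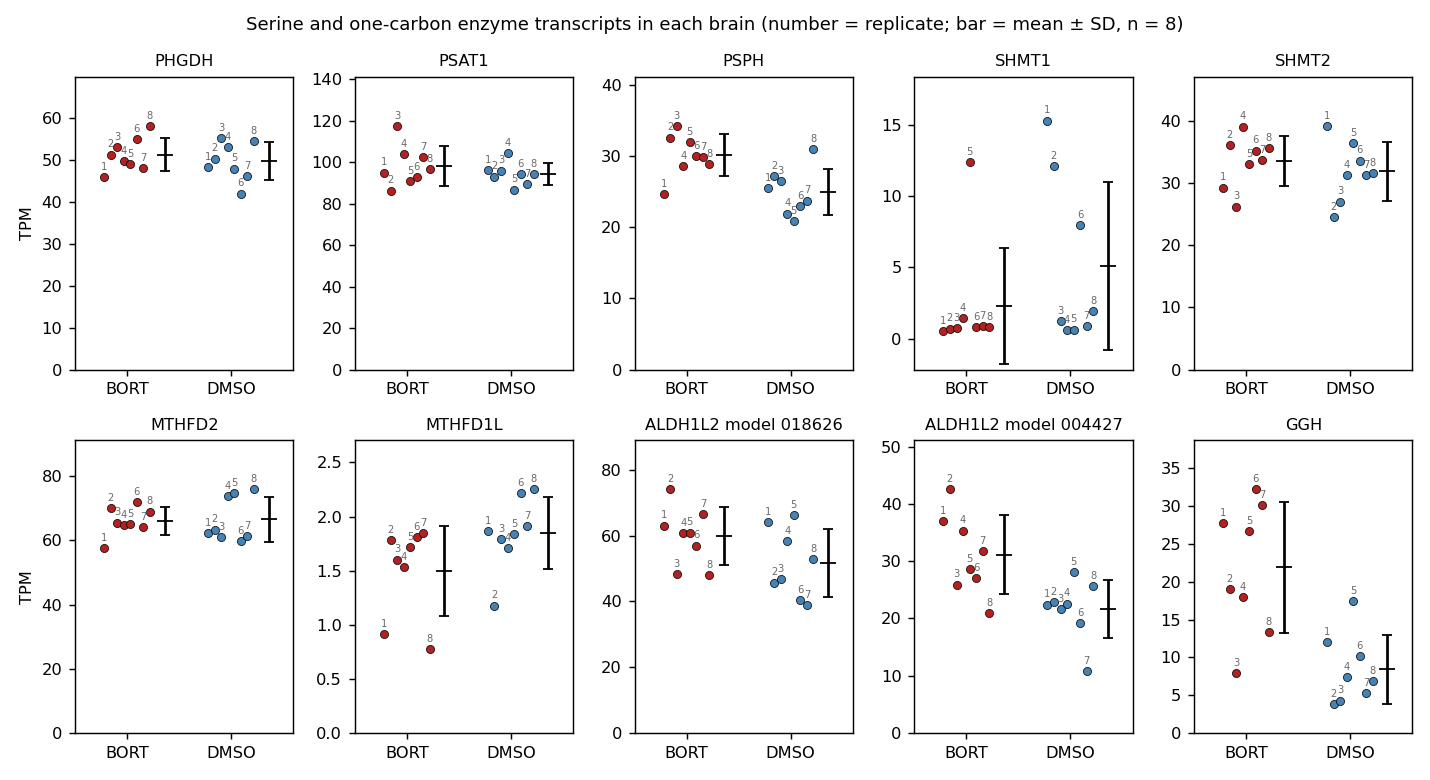
Each panel plots the TPM of 1 member row in every brain, BORT fish (red) left of DMSO fish (blue), with the replicate number above each point and a bar for the mean ± SD (n = 8). In GGH, 6 BORT brains lie above the highest DMSO brain, and in SHMT1 4 brains stand far above the other 12.

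GGH opposes folate retention by trimming the polyglutamate tail of folates. Its level in BORT replicates 1 to 8 was 27.8, 19.0, 7.93, 18.0, 26.7, 32.3, 30.2 and 13.4 TPM, and in DMSO replicates 1 to 8 it was 12.0, 3.81, 4.27, 7.38, 17.4, 10.2, 5.25 and 6.87 TPM. Thus 6 of 8 BORT brains lay above the highest DMSO brain, all 8 lay above the DMSO median, and the groups overlapped through BORT replicates 3 and 8 and DMSO replicates 1, 5 and 6. The means were 21.9 ± 8.66 TPM in BORT brains and 8.40 ± 4.61 TPM in DMSO brains (SD, n = 8 each), a ratio of 2.61. The log2 fold change was 1.31 ± 0.30 (SE; 95% interval 0.67 to 1.95; adjusted p = 0.0207). Among rises this was a large one for these brains: 0.0971% of tested rows had a higher signed log2 fold change. Falls of a larger size are not part of that share. By p it ranked 412 of 18529, since the spread between fish was wide, with a coefficient of variation of 39.6% in BORT brains and 54.9% in DMSO brains. The call held without any 1 fish (log2 fold change 1.19 to 1.49, adjusted p of up to 0.0480), and when the 4 fish with pituitary transcripts were dropped (1.36, adjusted p = 0.0393).

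Part of the spread of GGH ran along the main axis of variation of the whole table. The first principal component held 26.6% of the variance, and its scores ran from -35.0 to 30.2 in BORT fish and from -52.1 to 22.6 in DMSO fish. Within groups, GGH correlated with it at r = 0.82 (Spearman rho 0.75, r = 0.76 without DMSO replicates 2 and 3; 16 fish, as a description, since GGH is itself a row of that table). The lowest GGH value of the BORT group, in replicate 3, and the 2 lowest of the DMSO group, in replicates 2 and 3, belong to the fish with the 3 lowest scores. The 2 highest scores of each group belong to fish with pituitary transcripts, BORT replicates 6 and 7 (30.2 and 30.1) and DMSO replicates 5 and 6 (22.6 and 17.1). GGH was highest of its group in BORT replicates 6 and 7 and in DMSO replicate 5. DMSO replicate 6 lay below DMSO replicate 1, and BORT replicate 8, with a score of 26.8, had 13.4 TPM. With a covariate for this component the log2 fold change of GGH was 0.80 ± 0.21 (adjusted p = 0.0386), against 1.31 without it. The scores lay higher in BORT fish as a group, so the covariate may also take up part of the difference between groups.

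Some cell type markers also passed the test, where 4.86% of all tested rows were called. Of 16 tested neuron marker rows, 2 were higher in BORT brains, SYPB and SNAP25 (2 OF 2), both of synaptic vesicle release, 0 were lower, and 14 of the 16 log2 fold changes were positive (median 0.32). Their summed level was 3225 to 4178 TPM in BORT brains and 2444 to 3726 TPM in DMSO brains. Of 13 myelin rows, MAG was higher, FA2H was lower and 12 of 13 log2 fold changes were negative (median -0.24), with sums of 5996 to 11179 TPM in BORT brains and 7930 to 14328 TPM in DMSO brains. Of 11 tested radial glia rows, GLUL (2 OF 2) and SOX9A were lower, 0 were higher, and 7 of 11 log2 fold changes were positive (median 0.06), with sums of 2491 to 3978 TPM in BORT brains and 2327 to 3203 TPM in DMSO brains. Among the called marker rows the limma adjusted p was 0.00798 for SNAP25 (2 OF 2) and between 0.0287 (FA2H) and 0.0430 (SYPB) for the others. Whether these marker calls hold with a fish left out was not tested. No row of these 3 lists had a mean of 0. Of 15 radial glia rows, however, only 11 were tested, and AQP4 and SLC1A2A reached 1 TPM in 0 fish. The part of these cell types in the GGH result was not tested.

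**Figure D2:**
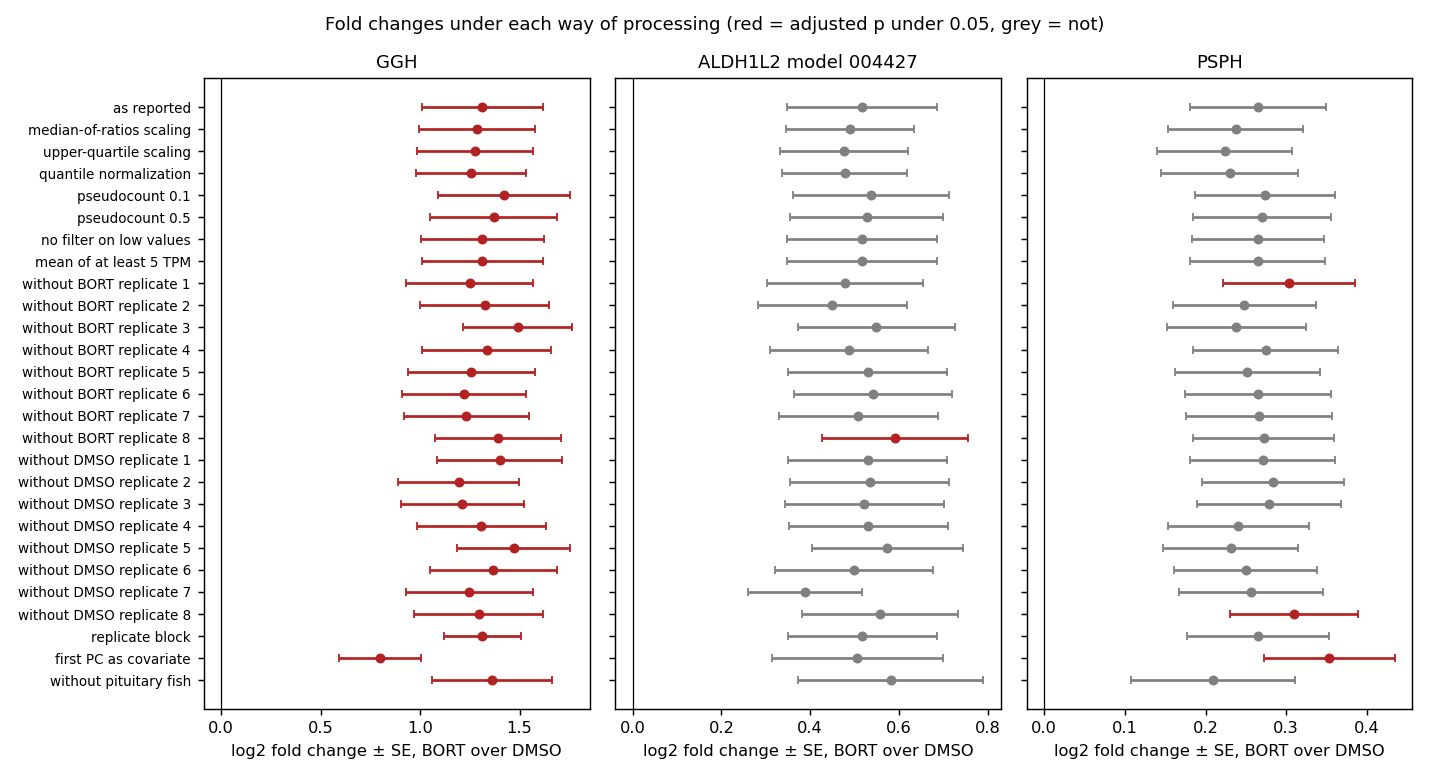
Points are log2 fold changes, BORT over DMSO, with their standard errors, for GGH, the ALDH1L2 row Nfu_g_1_004427 and PSPH under each way of processing the values or leaving out fish; red points have an adjusted p under 0.05. GGH is past the threshold in every fit shown, the ALDH1L2 row in 1 and PSPH in 3.

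Of the enzymes that make serine, none passed the test. PHGDH, which opens the pathway, was 45.9 to 58.1 TPM in BORT brains (median 50.4) and 41.9 to 55.2 TPM in DMSO brains (median 49.3). Its log2 fold change was 0.05 ± 0.07 (SE; 95% interval -0.094 to 0.19; adjusted p = 0.722). PSAT1, the aminotransferase of the middle step, was 86.2 to 117 TPM in BORT brains (median 95.7) and 86.7 to 104 TPM in DMSO brains (median 94.2; log2 fold change 0.05 ± 0.06, 95% interval -0.076 to 0.18, adjusted p = 0.645). The ranges of the groups overlapped widely for both genes. PSAT1 varied more between BORT brains, with a coefficient of variation of 9.91%, against 5.55% in DMSO brains. The intervals of both genes lie between -0.094 and 0.19.

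PSPH, the phosphatase that releases serine, had the smallest adjusted p of the members that did not pass. Its level in BORT replicates 1 to 8 was 24.7, 32.6, 34.3, 28.6, 32.1, 30.0, 29.9 and 29.0 TPM, and in DMSO replicates 1 to 8 it was 25.5, 27.2, 26.5, 21.9, 20.9, 23.0, 23.8 and 31.1 TPM. All 8 BORT brains lay above the DMSO median of 24.7 TPM, 3 lay above the highest DMSO brain, and 4 DMSO brains lay below the lowest BORT brain. The means were 30.1 ± 2.93 TPM in BORT brains and 25.0 ± 3.30 TPM in DMSO brains (SD, n = 8 each), with a log2 fold change of 0.26 ± 0.08 (SE; 95% interval 0.087 to 0.44; adjusted p = 0.0811). The groups overlapped through 2 fish that went against the rest, BORT replicate 1 and DMSO replicate 8. PSPH passed when either was left out (adjusted p = 0.0488 without BORT replicate 1 and 0.0400 without DMSO replicate 8). With any other single fish left out PSPH did not pass (adjusted p of up to 0.140). It also passed under a covariate for the first principal component (log2 fold change 0.35, adjusted p = 0.0221); its own correlation with that component was r = -0.58 within groups (Spearman rho -0.59), opposite in sign to that of GGH.

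Of the serine hydroxymethyltransferases, SHMT2 did not pass and SHMT1 was not tested. SHMT2, the mitochondrial enzyme, was 26.2 to 39.0 TPM in BORT brains (median 34.5) and 24.5 to 39.2 TPM in DMSO brains (median 31.4), with a log2 fold change of 0.08 ± 0.10 (SE; 95% interval -0.13 to 0.28; adjusted p = 0.687). Like GGH it followed the first principal component within groups, at r = 0.87 (Spearman rho 0.78), and with that component as a covariate its log2 fold change was -0.086. SHMT1, the cytosolic enzyme, was at 12.4 TPM in BORT replicate 5 and at 15.3, 12.1 and 7.99 TPM in DMSO replicates 1, 2 and 6. In the other 12 brains, 7 BORT and 5 DMSO, it lay between 0.538 and 1.94 TPM. SHMT1 thus stood at 2 distinct levels, with fish of both groups on each, and the means of 2.29 ± 4.10 TPM in BORT brains and 5.09 ± 5.92 TPM in DMSO brains (SD, n = 8 each) describe neither level. Without the filter on low values its log2 fold change was -0.76 ± 0.57 (adjusted p = 0.524). Of the 4 high brains, 1 carried pituitary transcripts.

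The mitochondrial folate dehydrogenases and synthetase were also not called. MTHFD2, a dehydrogenase and cyclohydrolase, was 57.6 to 72.0 TPM in BORT brains (median 65.3) and 59.9 to 76.0 TPM in DMSO brains (median 62.9), with a log2 fold change of -0.01 ± 0.07 (SE; 95% interval -0.15 to 0.13; adjusted p = 0.959). MTHFD1L, which releases formate, was the lowest tested member, at 0.774 to 1.85 TPM in BORT brains (median 1.66) and 1.18 to 2.25 TPM in DMSO brains (median 1.85; log2 fold change -0.20 ± 0.12, 95% interval -0.45 to 0.053, adjusted p = 0.350). BORT replicates 1 and 8 had its 2 lowest values, 0.912 and 0.774 TPM. At levels this near the pseudocount of 1 TPM a fold change is understated.

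ALDH1L2, a mitochondrial formyltetrahydrofolate dehydrogenase, has 2 rows in the table. The RefSeq gene table of the species names 1 aldh1l2 gene, so the rows may be copies, or fragments that share the reads of a single gene, which leaves the value of each uncertain. The row Nfu_g_1_004427 was at 37.0, 42.5, 25.9, 35.3, 28.6, 27.0, 31.7 and 21.0 TPM in BORT replicates 1 to 8 and at 22.4, 22.9, 21.6, 22.6, 28.0, 19.1, 10.8 and 25.7 TPM in DMSO replicates 1 to 8. Of the BORT brains 5 lay above the highest DMSO brain, while BORT replicate 8 lay below the DMSO median of 22.5 TPM. The means were 31.1 ± 6.94 TPM in BORT brains and 21.6 ± 5.14 TPM in DMSO brains (SD, n = 8 each; log2 fold change 0.52 ± 0.17 (SE), 95% interval 0.16 to 0.87, adjusted p = 0.0876). This row passed when BORT replicate 8 was left out (log2 fold change 0.59, adjusted p = 0.0441). With any other single fish left out it did not pass (adjusted p of up to 0.156).

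The row Nfu_g_1_018626, the more abundant of the pair, was 48.1 to 74.1 TPM in BORT brains (median 60.8) and 38.9 to 66.3 TPM in DMSO brains (median 49.8). Its log2 fold change was 0.22 ± 0.12 (SE; 95% interval -0.034 to 0.47; adjusted p = 0.305). The rows moved together within groups, with r = 0.78 (Spearman rho 0.75) over 16 fish. BORT replicate 2 was the highest fish and DMSO replicate 7 the lowest fish in both. When both rows were summed, the log2 fold change was 0.32 ± 0.13 and did not pass (adjusted p = 0.164).

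Levels of the members kept almost the same order in both groups. PSAT1 was highest (98.1 ± 9.72 TPM in BORT brains and 94.2 ± 5.22 TPM in DMSO brains), followed by MTHFD2 (66.0 ± 4.44 and 66.6 ± 6.96 TPM), the ALDH1L2 row Nfu_g_1_018626 (59.8 ± 8.77 and 51.7 ± 10.4 TPM), PHGDH (51.2 ± 3.96 and 49.6 ± 4.53 TPM) and SHMT2 (33.5 ± 4.08 and 31.8 ± 4.71 TPM; SD, n = 8 each, BORT then DMSO). The place of this ALDH1L2 row is not settled, since it overlapped MTHFD2 and PHGDH within 1 SD in both groups. MTHFD2 lay above PHGDH in every brain. PSAT1 stood clear of MTHFD2, and PHGDH clear of SHMT2, in both. SHMT2, the other ALDH1L2 row and PSPH overlapped in BORT brains, where GGH overlapped PSPH as well. In DMSO brains GGH stood clear below the ALDH1L2 row, next to SHMT1 and MTHFD1L at the foot of the order.

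**Figure D3:**
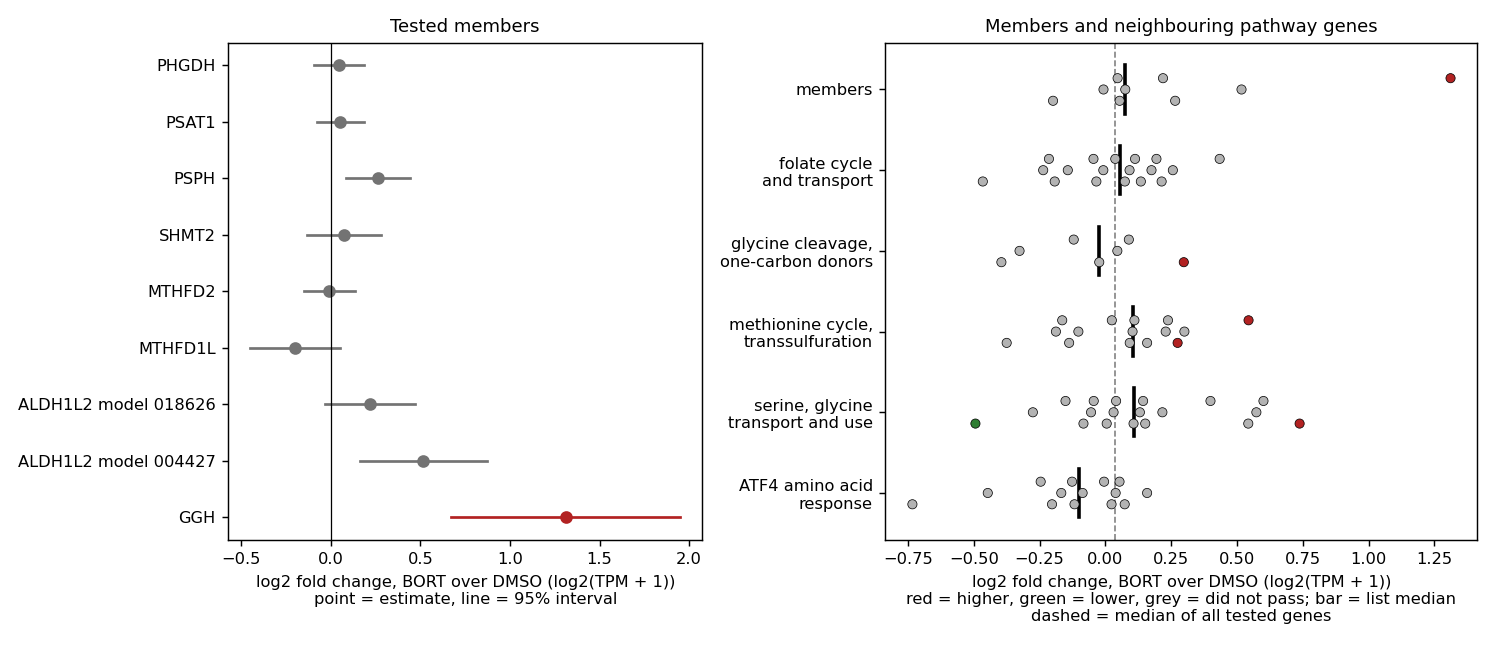
Left, log2 fold change of each tested member row, BORT over DMSO on the log2(TPM + 1) scale, with its 95% interval; only GGH (red) passed the test. Right, the same value for the members and for tested genes of 5 neighbouring pathways (red higher, green lower, grey not passed), with a bar at each list's median and a dashed line at the median of all tested rows, 0.03.

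No listed gene of the wider folate cycle passed the test. Of 18 tested rows of the folate cycle and folate transport, 0 were higher and 0 lower, with a median log2 fold change of 0.06. Across all tested rows 4.86% were called, so 0 calls among 18 rows is near the background. FPGS, which adds the glutamates that GGH removes, was 21.3 ± 4.66 TPM in BORT brains and 19.3 ± 3.20 TPM in DMSO brains (SD, n = 8 each; log2 fold change 0.11 ± 0.15 (SE), adjusted p = 0.698). BORT replicate 8 had 10.5 TPM of FPGS, and the other BORT brains had 18.9 to 24.4 TPM. The FPGS medians were 23.4 TPM in BORT brains and 18.9 TPM in DMSO brains. MTHFD1A, a row with the symbol of a copy of the cytosolic enzyme MTHFD1 and outside the member rule, was 12.5 ± 1.15 TPM in BORT brains and 14.1 ± 1.31 TPM in DMSO brains (adjusted p = 0.235). ALDH1L1, the cytosolic counterpart of ALDH1L2, differed by 0.26 ± 0.15 (log2; adjusted p = 0.352) and 0.17 ± 0.12 (0.418) in its 2 rows.

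The balance between a mitochondrial enzyme and its cytosolic counterpart was compared as the log2 ratio of their summed TPM + 1 in each fish. None of 3 ratios differed beyond the spread between fish. MTHFD1L (0.774 to 2.25 TPM) and, in 12 brains, SHMT1 (0.538 to 1.94 TPM) lay near the 1 TPM added. Ratios that hold these genes are therefore understated in size. The ratio of SHMT2 to SHMT1 was 3.87 ± 1.03 in BORT brains and 3.03 ± 1.42 in DMSO brains (SD, n = 8 each), with p = 0.168 by a two-sided exact permutation test (0.504 adjusted over the 3 ratios). That of MTHFD1L to MTHFD1A was -2.45 ± 0.23 in BORT brains and -2.42 ± 0.24 in DMSO brains (exact permutation p = 0.748, adjusted 0.748). That of ALDH1L2 to ALDH1L1 was 0.24 ± 0.33 in BORT brains and 0.12 ± 0.46 in DMSO brains (exact permutation p = 0.554, adjusted 0.748). The first ratio was low in the same 4 brains in which SHMT1 was high.

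**Figure D4:**
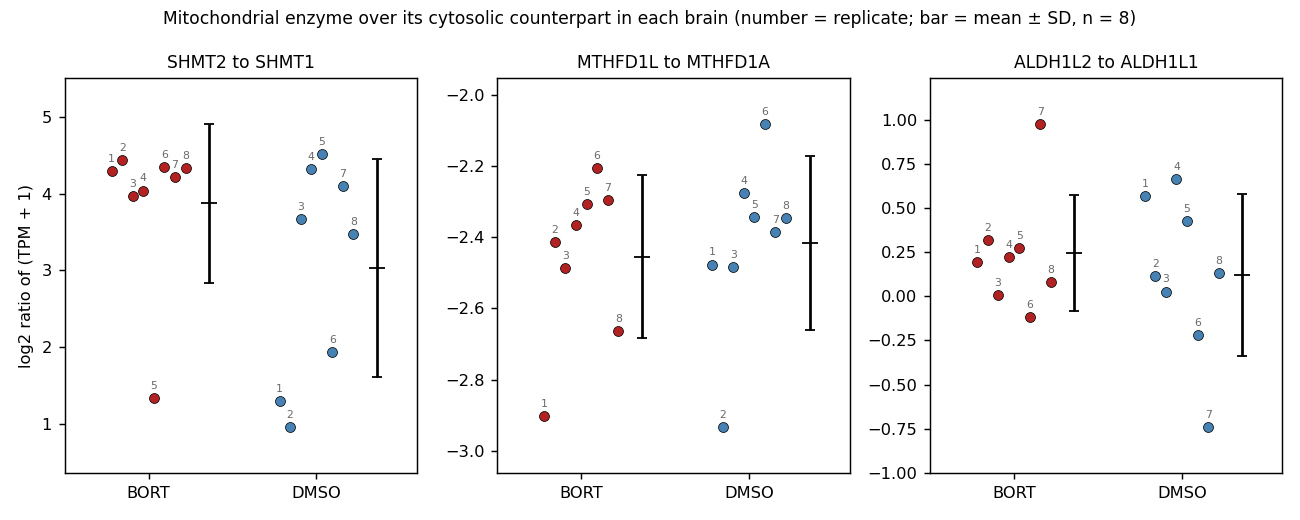
Each panel plots, for every brain, the log2 ratio of (TPM + 1) of a mitochondrial enzyme over its cytosolic counterpart, BORT fish (red) left of DMSO fish (blue), with the replicate number above each point and bars for the mean ± SD (n = 8). The groups overlap in all 3 panels, and in SHMT2 to SHMT1 BORT replicate 5 and DMSO replicates 1, 2 and 6 sit lowest.

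Glycine made by SHMT2 is broken down in mitochondria by the glycine cleavage system, which also loads one-carbon units onto folate. Of 7 tested rows of this system and of other mitochondrial one-carbon donors, 1 was higher and 0 were lower (median log2 fold change -0.02). The share called over all tested rows was 4.86%. AMT, the aminomethyltransferase that makes the folate-bound unit, was 14.2 to 18.7 TPM in BORT brains (median 15.7) and 9.62 to 14.0 TPM in DMSO brains (median 13.1), so that all 8 BORT brains lay above every DMSO brain. Its log2 fold change was 0.30 ± 0.08 (SE; adjusted p = 0.0404). How many of all tested rows show no overlap between the groups was not counted. GLDC, the decarboxylase of the same system, had 30.4 ± 6.30 TPM in BORT brains and 40.03 ± 7.10 TPM in DMSO brains (SD, n = 8 each; log2 fold change -0.40 ± 0.15 (SE), adjusted p = 0.127). GCSH (2 OF 2), its carrier protein, was at 179 ± 13.5 TPM in BORT brains and 174 ± 17.2 TPM in DMSO brains. DMGDH, which takes one-carbon units from dimethylglycine, differed by -0.33 ± 0.11 on the log2 scale (adjusted p = 0.0979). The AMT call lies close to the threshold: it ended without any 1 of 10 fish, BORT replicate 1, 2, 4, 5 or 6 or DMSO replicate 2, 3, 4, 7 or 8 (adjusted p of up to 0.0838), and once the 4 fish with pituitary transcripts were dropped (0.104). Each of 3 scalings ended it too: median-of-ratios (0.0541), upper-quartile (0.0691) and quantile (0.0766). So did a covariate for the first principal component (0.103). Under upper-quartile and quantile scaling GLDC passed in its place, lower in BORT brains (log2 fold change -0.44 and -0.43, adjusted p = 0.0493 and 0.0442), and DMGDH was called lower without BORT replicate 4 (-0.39, adjusted p = 0.0450).

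Among 15 tested rows of the methionine cycle and transsulfuration, 2 were higher and 0 lower (median log2 fold change 0.10). The share called over all tested rows was 4.86%. MAT2B, the regulatory subunit of the enzyme that makes S-adenosylmethionine, was 49.2 to 62.2 TPM in BORT brains (median 55.6) and 40.9 to 51.4 TPM in DMSO brains (median 46.6; log2 fold change 0.27 ± 0.07 (SE), adjusted p = 0.0299). The genes for the catalytic subunit, MAT2AA and MAT2AB, differed by 0.09 ± 0.10 (log2; adjusted p = 0.608) and 0.11 ± 0.09 (adjusted p = 0.502). The row Nfu_g_1_021046 of AHCYL1 (1 OF 2), a relative of adenosylhomocysteinase that binds the IP3 receptor, was 10.0 to 22.4 TPM in BORT brains (median 13.1) and 5.76 to 11.2 TPM in DMSO brains (median 9.26; log2 fold change 0.54 ± 0.15, adjusted p = 0.0407). A second row with that symbol was 100.1 ± 10.3 TPM in BORT brains and 82.3 ± 17.9 TPM in DMSO brains (adjusted p = 0.138), so reads may be split between the rows.

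Both calls of the methionine cycle ended once the 4 fish with pituitary transcripts were dropped (adjusted p = 0.106 for each) and under a covariate for the first principal component (0.0683 for MAT2B and 0.121 for AHCYL1 (1 OF 2)). That of MAT2B ended without any 1 of 7 fish, BORT replicate 1, 4, 5 or 6 or DMSO replicate 2, 3 or 7 (up to 0.0683), and after upper-quartile scaling and quantile normalization (0.0540 and 0.0562). That of AHCYL1 (1 OF 2) ended without any 1 of 10 fish, BORT replicate 1, 2, 4, 5, 6 or 7 or DMSO replicate 2, 3, 7 or 8 (up to 0.0754), and with no filter on low values (0.0567).

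Among 19 tested rows for transport and use of serine and glycine, 1 was higher and 1 lower (median log2 fold change 0.11). The share called over all tested rows was 4.86%. SFXN1, a carrier that brings serine into mitochondria, was 11.4 to 24.2 TPM in BORT brains (median 15.3) and 4.53 to 12.8 TPM in DMSO brains (median 10.3), and 6 BORT brains lay above the highest DMSO brain. Its means were 16.6 ± 4.77 TPM in BORT brains and 9.57 ± 2.55 TPM in DMSO brains (SD, n = 8 each; log2 fold change 0.74 ± 0.19 (SE), adjusted p = 0.0319). The difference on the log2 scale was 0.57 ± 0.17 for SFXN3, a relative that also carries serine (adjusted p = 0.0628), and 0.11 ± 0.13 for SFXN2 (adjusted p = 0.659).

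SPTLC3, a subunit of the enzyme that joins serine to fatty acids for sphingolipids, was lower in BORT brains. Its levels lay near the pseudocount of 1 TPM, and the depth is unknown. SPTLC3 was 1.35 to 2.34 TPM in BORT brains (median 1.79) and 2.49 to 3.41 TPM in DMSO brains (median 2.89), with no overlap, and its log2 fold change was -0.49 ± 0.09 (adjusted p = 0.00455). The share of all tested rows without overlap was not counted. The other subunits SPTLC1, SPTLC2B and SPTLC2A differed by 0.15 ± 0.08, -0.04 ± 0.08 and 0.04 ± 0.14 on the log2 scale (adjusted p = 0.293 or more). SLC6A9, a glycine transporter, differed by 0.60 ± 0.20 on the log2 scale (adjusted p = 0.0957), and SLC1A4, which carries neutral amino acids such as serine, by 0.13 ± 0.12 (adjusted p = 0.550). The SFXN1 call ended without BORT replicate 2, 4, 5 or 6 or DMSO replicate 4 (adjusted p of up to 0.0651), while SFXN3 passed without DMSO replicate 3 (0.0396) and SLC6A9 without BORT replicate 8 (0.0481). Neither the SFXN1 nor the SPTLC3 call held once the 4 fish with pituitary transcripts were dropped (adjusted p = 0.0743 and 0.0625).

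None of the other listed ATF4 targets of the amino acid response passed the test. No row of the table had the symbol ATF4. Of 14 tested target rows 0 were higher and 0 lower, with a median log2 fold change of -0.10 and 5 of 14 positive. With 4.86% of all tested rows called, 0 calls among 14 rows is near the background. ASNS, which makes asparagine, was 15.1 ± 1.70 TPM in BORT brains and 14.6 ± 2.44 TPM in DMSO brains (adjusted p = 0.787). DDIT3, a transcription factor of stress responses, was 64.5 ± 8.74 TPM in BORT brains and 61.8 ± 12.2 TPM in DMSO brains (SD, n = 8 each; adjusted p = 0.746). TRIB3, a pseudokinase, was 2.71 to 5.43 TPM in BORT brains (median 3.90) and 2.76 to 22.9 TPM in DMSO brains (median 5.57), with a log2 fold change of -0.73 ± 0.31 (SE; adjusted p = 0.180).

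Across fish, the rows whose variation within groups was most like that of 3 members were found among tested rows with a gene symbol and a mean of at least 5 TPM. For GGH these were TEAD1 (1 OF 2), a transcription factor of the Hippo pathway, DNAH10, a dynein heavy chain of cilia, and RIMBP2 (3 OF 4), a presynaptic scaffold protein (r = 0.93, 0.93 and 0.92; Spearman rho 0.94, 0.90 and 0.92; 16 fish). None of these passed the test between groups (log2 fold change 0.44, 0.32 and -0.07). For PSPH they were RRM1 (1 OF 2), a subunit of ribonucleotide reductase, LMO2, a LIM-domain factor, and MYCL1A, of the MYC family (r = 0.87, 0.86 and 0.85; rho 0.89, 0.88 and 0.85). Of these LMO2 was higher in BORT brains (46.7 ± 4.12 TPM, against 35.8 ± 4.65 TPM in DMSO brains; adjusted p = 0.0119) and MYCL1A lower (10.9 ± 1.47 TPM, against 15.98 ± 2.39 TPM; adjusted p = 0.00646). For the ALDH1L2 row Nfu_g_1_018626 they were OSBPL2A, an oxysterol-binding protein, GATSL3 and HINT3 (r = 0.91, 0.90 and 0.89; rho 0.92, 0.88 and 0.91), none of which passed. Without the 2 fish farthest from the member's median, r stayed between 0.83 and 0.93 for all 9 rows. These rows were picked as the highest of many and are given as a description.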

How the data were processed

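Brain RNA of 16 fish, 8 per group, was compared. The authors deposited 1 table of TPM values, and each column summed to 1000000. Per the submitters' processing notes, bcl2fastq 2.20.0.422 and STAR were used; which read counter, annotation and genome build were used is not given in the sources used here. Depth is lost in TPM, and counting intervals were not computed. The RefSeq gene table of the species held 0 of the table's identifiers, so no coordinates or sequences are given. Groups follow the sample titles.

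The 18529 rows that reached 1 TPM in at least 8 fish were fitted together (8210 did not reach it), using limma 3.58.1 under R 4.3.3, an intensity trend and no covariate, on log2(TPM + 1), which understates changes of low genes. P-values were two-sided and Benjamini-Hochberg adjusted over all tested rows, threshold 0.05. The 3 ratios were compared by exact permutation over 12870 splits. The fit was checked on simulated data in which 200 of 18529 rows were changed. It called 38% of log2 changes of 0.5 and 86% of log2 changes of 1, with 8 false calls. Some changes of each size were missed, so a row that did not pass may still differ by 0.5, by 1 or by more. TRIB3, for example, did not pass with a log2 fold change of -0.73 (interval -1.38 to -0.084). Members and lists were chosen with earlier results of these data known. Named were all members, rows of 5 pathway lists that passed (otherwise the 1 with the smallest p), ALDH1L1, ATF4, PSMA4 and the 3 rows most like each of PSPH, ALDH1L2 and GGH; others (among them FPGS, GLDC, GCSH, DMGDH, MAT2AA, MAT2AB, SFXN2, SFXN3, SLC6A9, SLC1A4, SPTLC1, SPTLC2A, SPTLC2B, ASNS, DDIT3, MTHFS and the called markers) were added after their values were seen. A result that this rule would name is not reported here. Alternatives were 3 scalings, 2 pseudocounts, 2 filters, a replicate block, a covariate for the first principal component, and leaving out each fish or the 4 with pituitary transcripts. Marker lists of microglia, vessels, red blood cells, dividing cells, pituitary and liver had 0 called rows, where 4.86% of all tested rows were called. Python 3.11.15, numpy 2.4.6, pandas 2.3.3 and matplotlib 3.10.9 were used.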

Additional observations from a re-analysis of the deposited data

Results flagged for a closer look

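In 6 of 50 groups of 8 fish, 1 fish stood apart from the rest of its group by Dixon's criterion. By chance it flags about 1 in 20 groups of independent, normally distributed values. The ratios reuse rows that were also screened singly, so 6 of 50 cannot be set against that share. SHMT1 was 12.4 TPM in BORT replicate 5, where the next BORT fish had 1.43 TPM. The same fish had the lowest BORT log2 ratio of SHMT2 to SHMT1, 1.34, with the next at 3.96. AHCYL1 (1 OF 2), row Nfu_g_1_021046, was 22.4 TPM in BORT replicate 4, with the next at 14.4 TPM. The log2 ratio of ALDH1L2 to ALDH1L1 was 0.98 in BORT replicate 7, with the next BORT fish at 0.32. AMT was 9.62 TPM in DMSO replicate 7, with the next at 12.4 TPM, and without that fish the AMT call ended. The log2 ratio of MTHFD1L to MTHFD1A was -2.93 in DMSO replicate 2, with the next at -2.48.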

How the results depend on the processing

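GGH kept its call in every alternative run. Calls among the other members appeared for PSPH under a covariate for the first principal component (2 members called) and for PSPH or ALDH1L2 with 1 fish left out (1 to 2 called). The sign turned for SHMT2 with that covariate (-0.086), for PHGDH after quantile normalization (-0.013) and without the 4 fish with pituitary transcripts (-0.0030), for PSAT1 after quantile normalization (-0.018), and, with 1 fish left out, for MTHFD2 (-0.028 to 0.020) and the ratio of MTHFD1L to MTHFD1A (-0.11 to 0.025). Scaling shifted the median of all rows by at most 0.049. The glycine cleavage list had 0 calls after median-of-ratios scaling, with the replicate block, with the covariate and without the 4 fish (0 to 1 with 1 fish left out); its 1 call under upper-quartile and quantile scaling was GLDC, lower, not AMT, and without BORT replicate 4 it was DMGDH, lower. The methionine list had 1 call after upper-quartile scaling, after quantile normalization, without a filter and with the block, and 0 with the covariate and without the 4 fish (0 to 2). The serine list had 1 call with the block and when only rows averaging 5 TPM or more were kept, and 0 without the 4 fish (1 to 3). The 5 TPM filter left SPTLC3 untested, since its mean in each group lies under 5 TPM. The cause of the other changes was not tested. Over all rows, higher calls numbered 374 to 892 with 1 fish left out (431, 392 and 374 without BORT replicates 2, 4 and 6) and 266 without the 4 fish; lower calls numbered 118 to 273 (143 and 118 without BORT replicates 4 and 6, 129 without DMSO replicate 7), 71 without the 4 fish, and 388, 455 and 563 under median-of-ratios, upper-quartile and quantile scaling, beside 537, 502 and 549 higher. No label says that replicate numbers pair the fish. Of the 8 pairs of equal number, 3 correlated above 0.1 within groups (range -0.24 to 0.41), which cannot settle whether fish were paired. The replicate block left 375 higher and 116 lower calls, and GGH passed with it (adjusted p = 0.00835). Unknown depth limits what MTHFD1L, and SHMT1 in its 12 low brains, can show near 1 TPM. The same holds for SPTLC3, with means of 1.78 TPM in BORT brains and 2.90 TPM in DMSO brains.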

Other observations

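MTHFS, which returns a stored form of folate to the active pool, stood at 2 levels in the table, as SHMT1 did; both were noticed after their values were seen. It was 16.8 to 27.7 TPM in BORT replicates 2, 3, 4 and 6 and DMSO replicates 3, 7 and 8, and 3.51 to 5.72 TPM in the other 9 fish. With 4 BORT and 3 DMSO fish on the higher level, its log2 fold change was 0.43 ± 0.48 (SE; adjusted p = 0.628). None of the 7 fish high in MTHFS was among the 4 high in SHMT1 (0 shared). The row most like SHMT1 within groups was CACNA1I, a calcium channel gene, with r = 0.81 (Spearman rho 0.54) over 16 fish, and r = 0.46 without BORT replicate 5 and DMSO replicate 1, which had 61.7 and 47.1 TPM of it.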
